A study of Rattus norvegicus with 92 samples.

Results

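The hypothalamus is the brain region that links the nervous system to the pituitary and adrenal glands. Its nuclei hold neurons that make peptide hormones and releasing factors, and it takes part in the control of stress hormones, feeding, body temperature and the autonomic nerves. Transcripts that are high in the hypothalamus and low elsewhere include messages for such peptides, and the cells that make them sit in small clusters, so what a piece of tissue contains depends on where it is cut. Acrolein is a reactive aldehyde of smoke that irritates the airways and activates stress pathways when it is inhaled.

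The values described here are those of 49 rows, of 20508 in all (0.239%), that were enriched in the hypothalamus of air-exposed rats. A row was included when its mean in air hypothalamus samples was at least 6 CPM and at least 5 times its air mean in each of the other 7 tissues, the hippocampus included. CPM stands for a row's deposited value as a share of the total of its sample, times 1000000, so that libraries of different depth are on a common scale. All 49 rows carry Ensembl transcript identifiers. No gene symbols accompany the identifiers in the files, so rows are given by identifier, the label of the tissue could not be checked against known marker genes, and no sequence is printed. Levels of different rows do not rank their abundance, because transcript lengths were not used here. Ranges and sums over rows are descriptions, and the sums are weighted by the highest rows.

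The samples came from adult male Wistar-Kyoto rats that inhaled filtered air, with 0 ppm acrolein, or acrolein raised in steps to 3.16 ppm, through the nose over 4 h. Poly-A RNA was sequenced from 8 tissues in 92 samples. The hypothalamus gave 6 air and 6 acrolein samples, and the hippocampus, the other brain region, gave 6 and 6 as well. Hypothalamus libraries held 12775556 to 18469744 reads, and hippocampus libraries held 13199359 to 22288536. Nothing in the labels says whether equal replicate numbers in 2 tissues mark the same rat. In bulk RNA, fewer cells of a type and less RNA per cell cannot be told apart.

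Several libraries stood apart. Between hypothalamus libraries the Pearson correlation of log2 values, over 15821 rows with a mean of at least 10, lay between 0.831 and 0.989. Acrolein replicate 11 had the lowest median correlation with the others, 0.896. Acrolein replicate 15 and air replicate 6 had medians of 0.904 and 0.917 and were each closest to the other, at 0.972, although they belong to different groups. In hippocampus the lowest medians were those of air replicate 2 (0.894) and acrolein replicate 12 (0.903).

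The enriched rows stood well above the limit that chose them in some cases and close to it in others. In air hypothalamus samples their means ran from 6.17 to 1028 CPM, with a median of 46.8 CPM. The ratio to the next-highest tissue ran from 5.28 to 115, with a median of 9.64. It was at least 10 in 22 rows and at least 50 in 5. At the limit on the ratio, the members just inside stood at 5.28, 5.30 and 5.38, and the rows just outside at 4.91 and at 4.99 for the nearest pair. At the limit on level, the members just inside had 6.17, 6.18 and 6.28 CPM, and the nearest rows outside had 4.99, 3.74 and 3.56 CPM. These values chose the rows and are given as a description only.

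**Figure D1:**
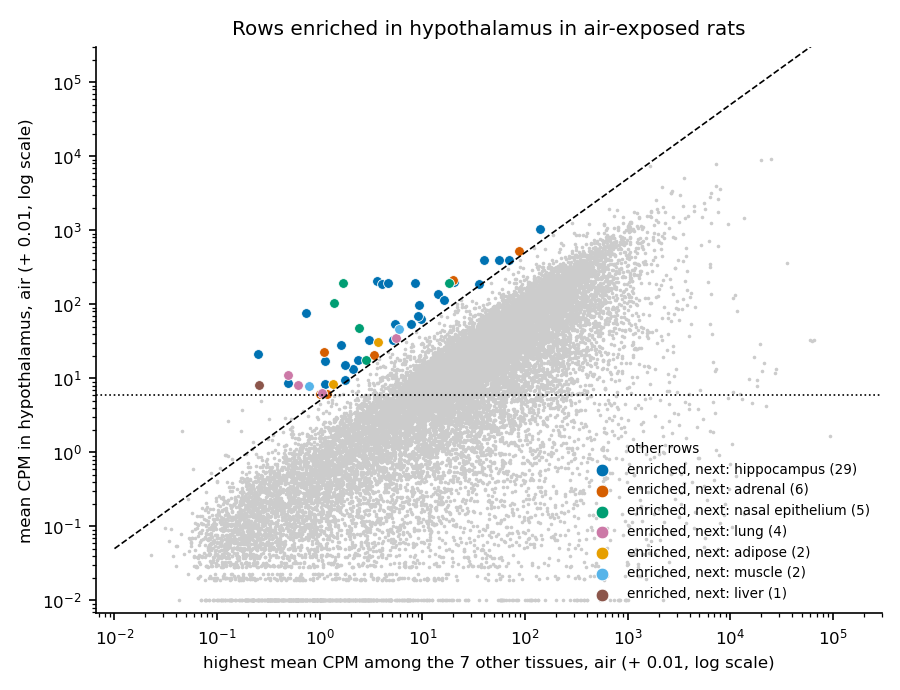
Mean air CPM of each of the 20508 rows in hypothalamus (vertical axis) against its highest air mean among the other 7 tissues (horizontal axis), both with 0.01 added and on log scales; the dashed line marks a ratio of 5 and the dotted line 6 CPM. The 49 enriched rows are coloured by the next-highest tissue, which was the hippocampus for 29 of them.

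The next-highest tissue was the hippocampus for 29 rows, the adrenal gland for 6, the nasal epithelium for 5, the lung for 4, adipose tissue and muscle for 2 each and the liver for 1. Where the hippocampus came next, the ratio had a median of 9.64 and a highest value of 103. The ratios of the 5 rows with nasal epithelium next ran from 6.35 to 115. Those of the 6 rows with the adrenal gland next ran from 5.28 to 20.4.

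ENSRNOT00000095213 had the highest ratio of all, 115 times its nasal epithelium mean of 1.67 CPM. Its hypothalamus values were 47.2, 52.9, 152, 198, 253 and 449 CPM in the air samples and 29.3, 46.2, 169, 292, 393 and 442 CPM in the acrolein samples. The range was wide and nearly the same in both groups. ENSRNOT00000076904 came next, with a ratio of 103 to its hippocampus mean of 0.73 CPM. It stood at 36.9, 56.5, 58.0, 58.4, 121 and 122 CPM in the air samples and at 44.8, 54.6, 61.1, 66.2, 69.7 and 82.7 CPM in the acrolein samples. The acrolein values of this row lay within the range of the air values. Both rows were chosen for these ratios after their values were seen.

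Outside the brain the enriched rows were low, which the choice of rows required of the air means. Taking each row's level in a sample as a percentage of its own air mean in hypothalamus, the median over the 49 rows was 3.06% to 8.93% in the air hippocampus samples. It was 0.534% to 2.46% in air adrenal samples, 0.412% to 3.04% in air nasal epithelium and 0.204% to 0.494% in air lung. The acrolein samples took no part in the choice. In them this median was 0.400% to 0.940% in adrenal gland, 0.417% to 2.45% in nasal epithelium and 0.0701% to 0.375% in lung. In the livers this median was 0%. Of the 49 rows, 23 were at 0 in all 5 air livers. At the depth of those tables, 9035061 to 25850677 reads, a count of 0 allows up to 3 reads, or 0.116 to 0.332 CPM in a single liver (counting error only). The sum over the 49 rows was 3906 to 7644 CPM in air hypothalamus. It was 355 to 822 CPM in air hippocampus and 153 to 334 CPM in air adrenal gland. Air nasal epithelium held 51.7 to 178 CPM, air lung 40.9 to 64.6 CPM and air liver 5.80 to 18.3 CPM.

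Each hypothalamus library was also set against the other tissues on its own. The number of the 49 rows that reached 5 times the highest air mean of another tissue was 32 to 42 in the 6 air libraries, which the choice of rows used. In the 6 acrolein libraries, which it did not use, the number was 34 to 41. Over all 12 libraries 20 rows reached this level every time, 36 did so in at least 9 libraries, and 10 did so in at most 6. Membership by the mean could thus rest on a few samples. When the median over air samples took the place of the mean, 41 of the 49 rows were chosen again and 9 others came in.

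The spread between samples was large for part of the set. The highest of the 12 hypothalamus values was 1.92 to 1230 times the lowest, with a median of 4.17. Among all 11361 rows with at least 6 CPM in air hypothalamus the median was 2.70. A range of at least 10 times was seen in 11 of the 49 rows (22.4%), against 4% of the 11361 rows, and a range of at least 100 times in 5 (10.2%), against 0.537%. In 24 rows the highest value was under 4 times the lowest. Rows carried by a few high samples can pass a limit on the mean, so these shares are a description of rows chosen on that mean.

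**Figure D2:**
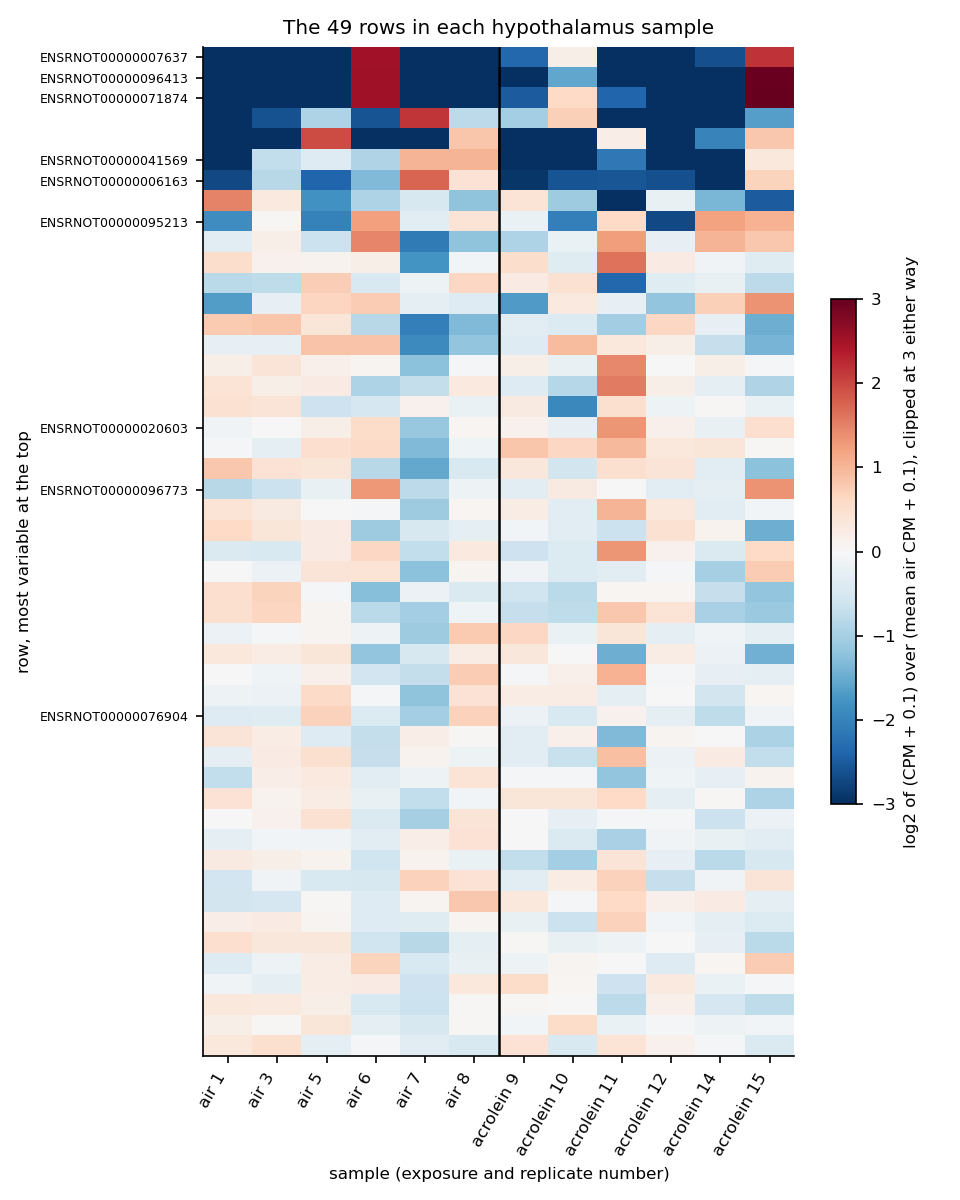
Each of the 49 rows (vertical, most variable at the top) in each of the 12 hypothalamus samples (horizontal, air left of the black line and acrolein right); colour is the log2 ratio of CPM + 0.1 to the row's mean air CPM + 0.1, clipped at 3 either way, and rows named in the text are labelled. The top 3 rows are high in air replicate 6 and acrolein replicate 15, and air replicate 7 and acrolein replicate 11 show many low or high rows.

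Single samples took many of the extremes. Air replicate 7 had the lowest of the 12 values in 19 of the 49 rows (38.8%), while it had the lowest value in 15.3% of the 11361 rows with at least 6 CPM. In that sample the median ratio of a row to its own air mean was 0.605, against 0.769 to 1.12 in the other air samples and 0.846 to 1.04 in the acrolein samples. Its sum over the 49 rows, 3906 CPM, was the lowest of the 12. Acrolein replicate 11 held the highest value in 15 rows and the lowest in 9, so 24 of the 49 rows had an extreme there. For the highest values its share was 30.6%, close to the 31.3% seen in the 11361 rows. The lowest values gave 18.4% and 18.5%.

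The largest swings belonged to 3 rows with the same pattern. ENSRNOT00000007637 was at 794 CPM in air replicate 6, against 0.645 to 13.5 CPM in the other 5 air samples. In the acrolein samples it was at 620 CPM in replicate 15 and 157 CPM in replicate 10, against 1.41 to 27.0 CPM in the other 4. ENSRNOT00000071874 was at 373 CPM in air replicate 6 and at 724 and 97.0 CPM in acrolein replicates 15 and 10. The other 5 air samples held no more than 3.36 CPM of it and the other 4 acrolein samples no more than 12.3 CPM. ENSRNOT00000096413 was at 64.2 CPM in air replicate 6, 86.1 CPM in acrolein replicate 15 and 3.68 CPM in acrolein replicate 10, and no other sample exceeded 0.62 CPM. All 3 rows were thus high in the same libraries of both groups. A milder form was seen in ENSRNOT00000096773, with 279 CPM in air replicate 6 and 285 CPM in acrolein replicate 15, against 63.1 to 102 CPM in the other air samples and 88.9 to 135 CPM in the other acrolein samples. The rows ENSRNOT00000096413 and ENSRNOT00000096773 were picked out after their values were seen.

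**Figure D3:**
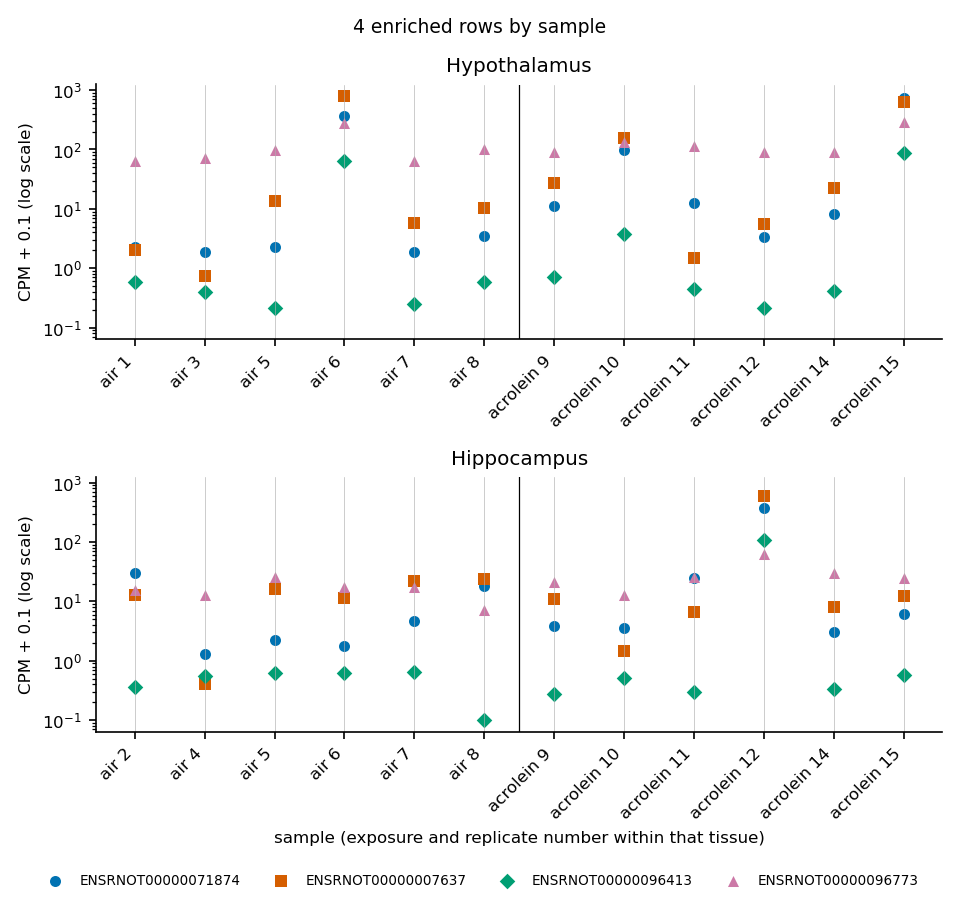
CPM + 0.1 (log scale) of 4 enriched rows in each of the 12 hypothalamus samples (upper panel) and 12 hippocampus samples (lower panel), air left and acrolein right of the black line, 1 symbol per row. In hypothalamus the rows peak in air replicate 6 and acrolein replicate 15, and in hippocampus they peak in acrolein replicate 12.

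The pattern was shared by rows outside the set. Of all 20508 rows, 82 (0.4%) had at least 6 CPM in both air replicate 6 and acrolein replicate 15 and at least 4 times the highest of the 9 samples other than these and acrolein replicate 10. The 3 rows were among them, and the other 79 did not reach 5 times every other tissue in air. In hippocampus, 54 of the 82 rows were at least 4 times as high in acrolein replicate 12 as in any other hippocampus sample. The share of all rows that did so was not computed. In acrolein replicate 12 the 3 enriched rows were at 593, 371 and 108 CPM, against no more than 23.5, 29.8 and 0.55 CPM in the other 11. When air replicate 6 was left out of the choice, 6 of the 49 rows no longer met the limits, the 3 rows and ENSRNOT00000096773 included. The place of the 3 rows in the set therefore rested on that library. Another of the 6 was also lost without air replicate 5 and without air replicate 8. With any other air sample left out, 1 to 3 of the 49 rows no longer met the limits. Whether these libraries contained tissue that the others did not was not tested.

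The limits were then applied to the acrolein means, which took no part in the choice. Of the 49 rows, 29 met both limits again, and 3 further rows did, which gave 32 in all. The hypothalamus still had the highest acrolein mean of the 8 tissues in 48 of the 49 rows. The ratio to the next tissue had a median of 5.72 and ran from 0.831 to 75.4. Of the 20 rows that missed, 19 fell short on the ratio and 3 on the level, 2 of them on both. The hippocampus was the next-highest tissue in 17 of those 19, and the ratio of the 19 had a median of 4.55. By the same limits, 56 rows were enriched in air hippocampus, and 38 of these met them in acrolein. In the 6 other tissues 81.5% to 92.5% of the rows chosen in air were chosen again, against 59.2% in hypothalamus and 67.9% in hippocampus. These shares were not tested.

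Acrolein was compared with air in the hypothalamus with limma on log2(normalized count + 1), with Benjamini-Hochberg adjustment over all 19902 rows tested. To be called, a row needed an adjusted p no greater than 0.1 and a fold change past 1.2 in either direction, the limits of the study's methods. None of the 49 rows was called, and none of the other rows was called either (0%). At an unadjusted p under 0.05 there were 2 of the 49 rows, both lower in acrolein, and 536 of all rows (2.69%, with 1.72% lower). On the recovered reads edgeR called 0 rows (556, or 2.79%, had an unadjusted p under 0.05), while DESeq2 called 1 row (0.00488%, with 576, or 2.81%, at that p), which was not among the 49. The median log2 fold change of the 49 rows was -0.02, a fold of 0.988, against -0.01 over all rows, and 24 rows were higher in acrolein and 25 lower, while 49.2% of all rows were higher. In none of the 49 rows were the acrolein and air samples free of overlap, against 0.0854% of all rows. Since the air samples chose the rows for a high value, the choice favours lower values in acrolein. Of the 32 rows chosen on acrolein samples instead, for which the choice works the other way, 15 were higher in acrolein, with a median of -0.05. However, 29 of these 32 rows are also among the 49, so they are not a separate check.

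The rows named for the largest differences varied widely within both groups. ENSRNOT00000041569 ran from 1.04 to 63.9 CPM in the air samples, with a median of 21.4 CPM, and from 1.38 to 38.9 CPM in the acrolein samples, with a median of 1.96 CPM. The groups overlapped at both ends, with air replicate 1 low and acrolein replicate 15 high. Its log2 fold change was -2.35 (standard error 1.00), with an unadjusted p of 0.033 and an adjusted p of 0.963 by limma. ENSRNOT00000006163 ran from 1.22 to 28.6 CPM in air, with a median of 4.05 CPM, and from 0.94 to 13.6 CPM in acrolein, with a median of 1.3 CPM. Here again 1 acrolein sample, replicate 15, stood within the upper air values while the other 5 were low. Its log2 fold change was -1.39 (standard error 0.80, adjusted p = 0.963 by limma). On the positive side ENSRNOT00000071874 and ENSRNOT00000007637 had log2 fold changes of 2.22 (standard error 1.45) and 1.46 (standard error 1.64), each with an adjusted p of 0.963 by limma. These are the rows high in air replicate 6 and acrolein replicate 15, and the standard errors were large beside the differences. On the recovered reads ENSRNOT00000007637 had a log2 fold change of 0.006 by edgeR and 0.0006 by DESeq2, so its rise was not seen there. ENSRNOT00000071874 had 1.16 by both.

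Without air replicate 7, in which so many of the rows were lowest, the median log2 fold change of the 49 rows was -0.20 and 15 were higher in acrolein. With air replicate 6 and acrolein replicate 15 left out together, 6 of the 49 rows (12.2%) had an unadjusted p under 0.05, against 1848 of all rows (9.32%), and 0 rows were called. None of the 49 rows was called with any 1 sample left out, when 0 to 6 of them had an unadjusted p under 0.05, against 1.48% to 12.6% of all rows. The 6 rows (12.2%) came without air replicate 6, where 12.6% of all rows passed too, so the share was near that of all rows.

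In the hippocampus, where the same 49 rows were low, most had higher values in the acrolein samples. All 49 passed the filter, 46 had a positive log2 fold change (93.9%, against 49.4% of the 19988 rows tested), and 3 a negative one. The median was 0.76 on the log2 scale, a fold of 1.69, against -0.01 over all rows. At an unadjusted p under 0.05 there were 9 of the 49 rows (18.4%), each higher in acrolein, against 4.31% of all rows, of which 2.15% were higher. None of the 49 was called by limma, the lowest adjusted p being 0.83, and 0 of all rows were called (0%), with 861 at an unadjusted p under 0.05. The choice required a low air mean in hippocampus, which favours higher values in acrolein there. The 32 rows chosen on acrolein means, for which the choice works the other way, gave 29 higher and a median of 0.78, but 29 of these rows are also among the 49.

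By sample, the median level of the 49 rows in hippocampus, as a percentage of their air mean in hypothalamus, was 3.06, 4.19, 7.26, 7.33, 8.08 and 8.93% in the air samples. In the acrolein samples it was 4.98, 7.68, 8.94, 13.6, 13.9 and 15.1%. Acrolein replicates 11, 12 and 14 stood well above every air sample, replicate 15 was level with the highest of them, and the other 2 lay within the air range. Acrolein replicate 12 is the library that held the 3 swinging rows, and without it 44 of the 49 rows were still higher in acrolein, with a median of 0.62. With each of the 12 samples left out in turn the median stayed between 0.60 and 0.97, with 44 to 48 rows higher. At an unadjusted p under 0.05 there were then 4 to 20 of the 49 rows, against 1.94% to 6.66% of all rows, the 4 (8.16%, against 2.43%) without acrolein replicate 12 and the 20 (40.8%, against 3.45%) without acrolein replicate 10. The 56 rows enriched in hippocampus by the same limits had a median of -0.30 there, and 12 of them were higher in acrolein. Those 56 rows were chosen for a high air mean in hippocampus, which favours lower values in acrolein there. The part of tissue composition in these differences was not tested.

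**Figure D4:**
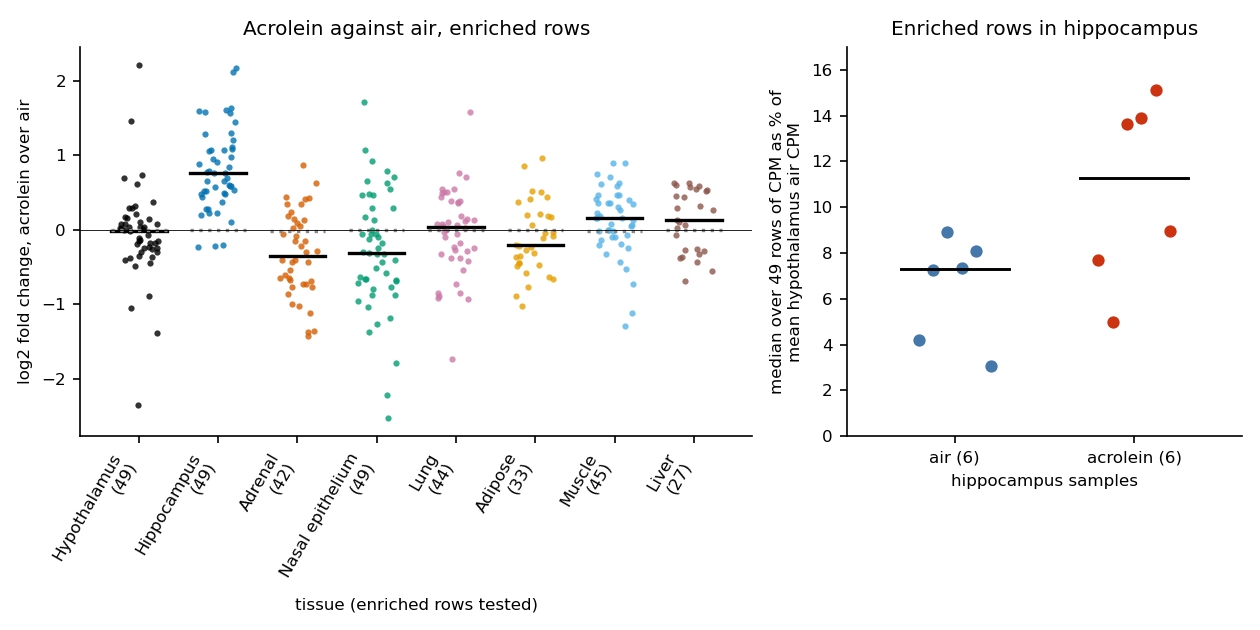
Left, log2 fold change of acrolein over air for each enriched row tested in each tissue, with the number tested in parentheses, the median of these rows as a black bar and the median of all rows as a dotted grey bar; right, the median level of the 49 rows in each hippocampus sample as a percentage of their air mean in hypothalamus, with a bar at the median of each group of 6. The hippocampus has a median of 0.76 while the hypothalamus lies at -0.02, and the air and acrolein hippocampus samples overlap.

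In the other tissues most of these rows were low, and not all could be tested. The filter kept 42 of the 49 rows in the adrenal gland, 49 in nasal epithelium, 44 in lung, 33 in adipose tissue, 45 in muscle and 27 in liver. Their median log2 fold changes were -0.36, -0.31, 0.04, -0.20, 0.15 and 0.14 in that order. The share of all rows called was 0.651% in nasal epithelium, 0.368% in liver, 0.00499% in lung and 0% in adrenal gland, adipose tissue and muscle. Of the enriched rows, 1 was called in nasal epithelium and 0 in each of the other 5 tissues. At an unadjusted p under 0.05 there were 3 of 42 in the adrenal gland (7.14%, against 7.54% of all rows), 6 of 49 in nasal epithelium (12.2% and 12.2%), and 6 of 44 in lung (13.6% and 7.67%). Adipose tissue and muscle had 1 each (3.03% against 2.71%, and 2.22% against 2.99%), and liver had 0 against 19.2%. The liver rows held few reads. The row filter in each tissue was a value above 0 in at least 2 samples.

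The row called in nasal epithelium was ENSRNOT00000020603. It was at 16.9, 17, 17.4, 17.9 and 20.1 CPM in the 5 air samples and at 26.5, 29.1, 30.2, 30.9, 40.9 and 42.4 CPM in the 6 acrolein samples. No acrolein sample overlapped an air sample, as in 1.38% of all nasal rows. The mean was 17.8 ± 1.31 CPM (SD, n = 5) in air and 33.3 ± 6.64 CPM (SD, n = 6) in acrolein. Its log2 fold change was 0.93 (standard error 0.15, adjusted p = 0.0223 by limma). With each nasal sample left out in turn it stayed called, at 0.87 to 0.98 on the log2 scale. This row sat close to the limit of the set, with a ratio of 5.77 to the hippocampus, and its nasal values were not what decided its place.

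The same row was followed in the remaining tissues. In lung it was at 2.21 to 6.32 CPM in the 8 air samples (median 3.26) and at 5.41 to 21 CPM in the 6 acrolein samples (median 10.9), with a small overlap. The log2 fold change there was 1.59 (standard error 0.30), with an adjusted p of 0.248 by limma, so it was not called. The unadjusted p by limma was 5.48e-05 in lung and 4.5e-05 in nasal epithelium, and each was adjusted over the rows of its own tissue. In hypothalamus it was at 180 to 585 CPM in air (median 405) and at 336 to 992 CPM in acrolein (median 439), the highest value being that of acrolein replicate 11. The difference in hypothalamus was 0.32 on the log2 scale (standard error 0.30, adjusted p = 0.963 by limma). Hippocampus and adrenal gland gave 0.77 (standard error 0.34, adjusted p = 0.83 by limma) and -0.65 (standard error 0.24, adjusted p = 0.649 by limma). Whether the change in nose differed from that in another tissue was not tested.

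**Figure D5:**
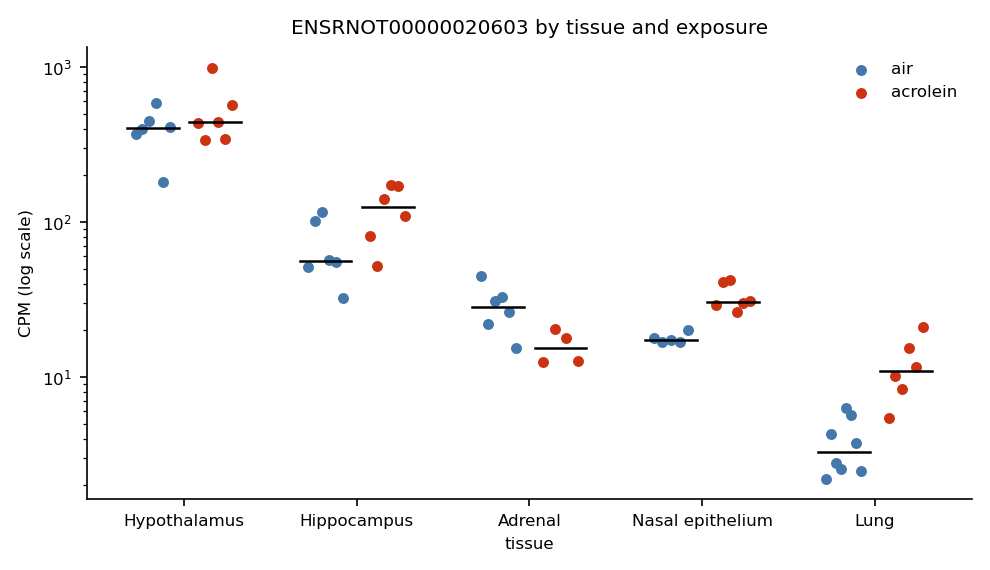
CPM (log scale) of ENSRNOT00000020603 in each air and acrolein sample of the 5 tissues where it was highest, with a bar at the median of each group. The 6 acrolein samples of nasal epithelium, 26.5 to 42.4 CPM, lie above the 5 air samples, 16.9 to 20.1 CPM, while the groups overlap in hypothalamus, hippocampus, adrenal gland and lung.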

How the data were processed

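Per the labels and the methods, poly-A RNA of 8 tissues was sequenced, the reads were mapped in Partek Flow to rn7 with Ensembl gene models, and the counts were analysed with DESeq2 in R 4.1.3. Each tissue has a deposited table of its own, all with 20508 rows. Its values are a signal that the authors made from read counts by dividing them by sample size factors, with each tissue normalized on its own. Tests were therefore made within a table, and levels set across tissues compare separately normalized tables. All columns were mapped to samples, and 0 were left over. Of the values above 0, 99.3% to 100% in each of the 92 columns were whole multiples of the smallest value of the column (tolerance 0.001), and 100% in hypothalamus, so reads were recovered.

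CPM was the value over the column sum. The adipose pair numbered 8 was averaged and counted once. The 49 rows were chosen on air means, and the rows and lists were chosen with earlier results of these data known. Acrolein and air were compared with limma 3.58.1 in R 4.3.3 (lmFit, eBayes with trend) on log2(value + 1) over rows above 0 in at least 2 samples. Because 1 is added, the change of low rows is understated. edgeR 4.0.16 and DESeq2 1.42.0 were run on recovered reads. On simulated hypothalamus reads with 200 changed rows, limma recovered 199 with 25 other calls over 19919 rows. The changed rows were drawn from those with a mean of at least 50 normalized counts. Every simulated row had the same low spread, and no simulated library stood apart. The recovery checks the code and does not measure what could be found in the real samples. By the methods, air and acrolein were given to separate rats. The labels tie no sample to a rat, and p-values measure the spread between these samples.

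Rows were to be named as the 2 largest rises and the 2 largest falls among members with a mean of at least 50 normalized counts, because identifiers have no symbols in the files used here. Other identifiers were named after their values were seen. The planned gene lists, marker lists and correlations between peptides need symbols and were not computed. Alternatives were the pseudocount, the filter, a common total, no trend, edgeR, DESeq2, TMM factors over all tables, the limits of the choice and each sample left out.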

Additional observations from a re-analysis of the deposited data

Results flagged for a closer look

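Samples were compared within their group for the rows named above and for the summed level of the 49 rows, in 30 groups. For normally distributed values, chance would set a sample apart in about 1 of 20 groups. The CPM values were compared without a log transform and many spanned wide ranges, so that rate may not hold here. In 16 groups a sample stood apart from the rest of its group by Dixon's criterion. The named rows were largely picked for their size of change or their pattern, so this count is no surprise rate for other rows.

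In hypothalamus, air replicate 6 stood apart for ENSRNOT00000007637 (794 CPM, next 13.5 CPM), ENSRNOT00000071874 (373 CPM, next 3.36 CPM), ENSRNOT00000096413 (64.2 CPM, next 0.49 CPM) and ENSRNOT00000096773 (279 CPM, next 102 CPM). Acrolein replicate 15 stood apart for the same rows, at 620 CPM (next 157 CPM), 724 CPM (next 97.0 CPM), 86.1 CPM (next 3.68 CPM) and 285 CPM (next 135 CPM) in that order. It also stood apart for ENSRNOT00000041569 (38.9 CPM, next 6.98 CPM) and ENSRNOT00000006163 (13.6 CPM, next 1.3 CPM). For ENSRNOT00000006163 the highest air sample was replicate 7 (28.6 CPM, next 11.4 CPM). For ENSRNOT00000020603 acrolein replicate 11 was highest (992 CPM, next 566 CPM).

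In hippocampus, acrolein replicate 12 stood apart for ENSRNOT00000007637 (593 CPM, next 12.3 CPM), ENSRNOT00000071874 (371 CPM, next 25.1 CPM) and ENSRNOT00000096413 (108 CPM, next 0.47 CPM). In lung, the summed level of the 49 rows was 270 CPM in acrolein replicate 14 (next 84.4 CPM), of which ENSRNOT00000007637 made up 211 CPM. The causes were not tested.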

How the results depend on the processing

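The number of rows depended on the limits: 121 rows at 3 times the other tissues, 22 at 10 times, 882 when the hippocampus was not used as a limit and 32 on acrolein samples, against 49. With each air hypothalamus sample left out it was 45 to 53. The number of the 49 rows that met the limits in acrolein was 28 to 32 with each acrolein hypothalamus sample left out and 30 on medians, which were added after seeing the data. The count of hypothalamus rows called was 1 with DESeq2 and 0 to 1 with a sample left out (1 without acrolein replicate 10), and the 49 rows gave 0 in every fit run. DESeq2 gave no adjusted p for ENSRNOT00000071874, ENSRNOT00000007637 and ENSRNOT00000096413, so they could not be called in that fit. The median log2 fold change of the 49 rows stayed between -0.20 and -0.01 with a sample left out. It was 0.02 when samples were rescaled to the same total, a shift smaller than the spread between samples. Without air replicate 6, 2498 of all rows had an unadjusted p under 0.05, and without air replicate 7 it was 294. In hippocampus the median was 0.60 to 0.97 with a sample left out. In the other tissues the counts of called rows kept their values when the pseudocount was 0.1 and when a mean of 10 or more was required.

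Among the named rows, ENSRNOT00000095213 changed sign with single samples left out (-0.29 to 0.51), and so did ENSRNOT00000096413 (-0.49 to 2.03, negative without acrolein replicate 15). Neither was called in any fit. The log2 fold change of ENSRNOT00000007637 was 1.46 by limma but 0.006 by edgeR and 0.0006 by DESeq2. The causes were not tested. No paired analysis was possible because in hypothalamus, hippocampus and nasal epithelium air and acrolein share no replicate number. With TMM scaling factors computed over all 8 tables, 43 rows met the limits, and all 43 were among the 49. The 6 samples per group, unnamed rows and libraries that stood apart limit what can be seen of small differences.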
